A study of Mus musculus with 4 samples.

Results

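Genes for secreted matrix regulators are described here in mammary tumours of MMTV-Neu mice, with and without the receptor tyrosine kinase AXL. The 10 are Smoc1, Smoc2, Sparc, Sparcl1, Spock2, Tnc, Postn, Spp1, Thbs1 and Thbs2, taken by symbol from the 38293 gene rows of the count files, and all 10 were among the 14330 genes that passed the filter on low counts. The set was built around Smoc1 and its relatives and chosen on the measured values of this same comparison. The differences between AXL KO and WT below are therefore a description of the members, with no test.

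The series holds RNA-seq of 4 tumours on the FVB strain, 2 from AXL KO mice and 2 from WT mice, where WT means that the Axl gene was intact. All 4 arose in animals with the MMTV-Neu transgene, in which a mammary tumour virus promoter drives the Neu (Erbb2) oncogene mainly in the mammary epithelium. The labels used here give no age, sex, sorting or pooling of animals. Nor do they state that the 2 libraries of a group came from separate animals, so the spread between them need not be one between animals. That spread was beyond sampling noise, with a chi-square per degree of freedom of 144 between the WT libraries and 59.6 between the AXL KO libraries. Reads counted in genes ran from 18929743 to 33131739 per library. Levels are given as CPM (counts scaled to equal library size) with TMM scaling, in the order WT replicate 1, WT replicate 2, AXL KO replicate 1, AXL KO replicate 2 where 4 values follow each other.

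Axl itself was at 61.8 and 35.2 CPM in WT tumours against 4.75 and 4.89 CPM in AXL KO tumours, so its groups did not overlap. Erbb2 was at 10968 and 12594 CPM in WT against 19776 and 19975 CPM in AXL KO, and the luminal epithelial marker genes summed to between 3209 and 4054 CPM in the 4 libraries. WT replicate 2 stood apart: 12 interferon response genes summed to 75.9 CPM there and to between 1124 and 1691 CPM in the other libraries, and 13 hypoxia targets summed to 3635 CPM against 1302 to 1888 CPM. All 12 interferon genes were lowest and all 13 hypoxia targets highest in that library. AXL KO replicate 1 had the lowest sum of 12 fibroblast markers, 370 CPM against 739 to 1102 CPM in the others, with 8 of the 12 lowest there and 0 of them without counts. Most of that sum was Col1a1, Col1a2 and Col3a1. The other 9 markers, a split made after their values were seen, summed to 133, 217, 152 and 203 CPM, lowest in WT replicate 1. Of these, Dcn, Lum, Dpt, Pdgfrb and Mfap5 were each lowest in AXL KO replicate 1. Fap, Pi16 and Col6a3 were lowest in WT replicate 1 and Pdgfra in WT replicate 2. Col6a3 was at 23.5, 55.4, 62.0 and 30.4 CPM. The description label of AXL KO replicate 2 has another prefix than those of the other 3 libraries, so values without that library are those within 1 prefix, and no comparison can be made inside the second.

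Matricellular proteins are secreted into the matrix but do not build it: they bind collagens, growth factors and cell surface receptors and tune adhesion, growth factor access and matrix assembly. SPARC and its relatives (SMOC1, SMOC2, SPARCL1, the testican SPOCK2) share an extracellular calcium-binding domain. Tenascin C, periostin, osteopontin and the thrombospondins belong to other families and act on integrins, CD44, CD36 and CD47. In tumours many of them are made largely by fibroblasts and other stromal cells, osteopontin also by macrophages and tumour cells.

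The promoters of 6 members had an entry in RefSeq (GRCm38.p6), those of Smoc1, Smoc2, Sparcl1 and Thbs1 did not. The 250 bases before the start site are shown for the 4 whose window held no annotated exon: Postn and Tnc, because their levels followed each other across the libraries, and Thbs2 and Spp1, because theirs ran differently. Of a gene with several entries the one nearest to the annotated gene start was taken. Capitals mark matches on either strand to the TATA box (TATAAA) or the AP-1 site (TGANTCA). They also mark the CCAAT box by its own letters, the GC box (GGGCGG) and the core of the hypoxia response element (ACGTG). No matches overlapped. All are written 5′ to 3′ on the strand of the gene.
Postn, chr3:54360857-54361106, plus strand: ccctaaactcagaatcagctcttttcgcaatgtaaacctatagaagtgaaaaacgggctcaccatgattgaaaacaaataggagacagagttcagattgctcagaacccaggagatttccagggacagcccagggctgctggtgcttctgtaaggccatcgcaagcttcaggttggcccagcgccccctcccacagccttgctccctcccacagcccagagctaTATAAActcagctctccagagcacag
Tnc, chr4:64047016-64047265, minus strand: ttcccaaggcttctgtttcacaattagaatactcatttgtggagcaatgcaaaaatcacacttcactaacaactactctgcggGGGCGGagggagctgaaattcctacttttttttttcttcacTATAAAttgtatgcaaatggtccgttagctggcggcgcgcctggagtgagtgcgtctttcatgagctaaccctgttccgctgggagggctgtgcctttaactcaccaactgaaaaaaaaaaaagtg
Thbs2, chr17:14694263-14694512, minus strand: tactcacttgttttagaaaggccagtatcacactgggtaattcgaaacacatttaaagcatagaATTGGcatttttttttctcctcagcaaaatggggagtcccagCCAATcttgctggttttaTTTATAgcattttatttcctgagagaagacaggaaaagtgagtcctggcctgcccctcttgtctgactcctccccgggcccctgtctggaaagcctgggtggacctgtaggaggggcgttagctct
Spp1, chr5:104434861-104435110, plus strand: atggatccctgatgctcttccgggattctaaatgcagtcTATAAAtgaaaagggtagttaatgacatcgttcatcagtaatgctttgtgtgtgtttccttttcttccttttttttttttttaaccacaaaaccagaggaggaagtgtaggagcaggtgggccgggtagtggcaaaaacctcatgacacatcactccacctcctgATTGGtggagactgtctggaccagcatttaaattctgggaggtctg

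TATAAA was found in 4 of the 6 windows, those shown, against 12.4% of all 32851 promoter entries. In Postn it lay from −26 to −21 relative to the start site, in Tnc from −126 to −121, in Thbs2 from −126 to −121 on the opposite strand and in Spp1 from −211 to −206. The CCAAT box was in 2 of the 6 (33.8% of all entries): Thbs2 held it from −186 to −182 on the opposite strand and from −144 to −140, and Spp1 from −46 to −42 on the opposite strand. The GC box was in 1, Tnc, from −167 to −162 (32.7%), the hypoxia core in 1, Spock2 (16.6%), and the AP-1 site in 0 (6.75%). Postn and Tnc thus shared the TATA box letters with Thbs2 and Spp1 and lacked the CCAAT letters of those windows. A match is a description of letters only.

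Smoc1 (ENSMUSG00000021136, chr12:81026808-81186414, plus strand of GRCm38) encodes a secreted calcium-binding basement membrane protein known as a modulator of BMP signalling. It was at 19.9 and 4.14 CPM in WT tumours against 68.5 and 94.3 CPM in AXL KO tumours, from 425, 79, 1282 and 3144 counts. The AXL KO values were both above the WT values, and the lower AXL KO library was 3.45-fold above the higher WT library. The WT libraries differed 4.80-fold from each other, the AXL KO libraries 1.38-fold. The log2 difference was 2.76 ± 0.74 (SE of the edgeR fit, n = 2 each), which is 6.77-fold. The SD of log2 CPM within the groups was 1.14. With 1 library left out it ran from 2.03 without WT replicate 2 to 4.30 without WT replicate 1, and within 1 prefix, that is without AXL KO replicate 2, it was 2.49. The low Smoc1 level of WT replicate 2 went with the low interferon and high hypoxia sums of that library, and their part in it was not tested. The 9 myoepithelial and basal markers, genes of the other epithelial layer of which 8 passed the filter, summed to 41.9, 99.01, 55.7 and 47.6 CPM, mostly from Acta2 and Mylk. Of the others, Krt17 had the order of libraries of Smoc1 but stayed at or under 0.30 CPM. Trp63 was at 0.79 and 1.62 CPM in WT against 2.51 and 2.13 CPM in AXL KO. Krt5 went the other way, at 1.36 and 0.84 CPM in WT against 0.64 and 0.54 CPM in AXL KO. So did Oxtr, at 5.24 and 4.55 CPM against 2.30 and 3.93 CPM. Of the 8 markers tested, 3 had a positive and 5 a negative log2 difference, with a median of −0.34.

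DESeq2 called 17 of the 19114 genes to which it gave an adjusted p, or 0.0889%, at a threshold of 0.05, and Smoc1 was the 1 member among them. By edgeR's quasi-likelihood test 0 of 14330 genes passed an adjusted p of 0.05, or 0%, with 314 at an unadjusted p under 0.05. Without WT replicate 1 edgeR called 216, and without each of the other libraries 0. Since Smoc1 was chosen with that call in view, nothing is read from it.

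Smoc2 (ENSMUSG00000023886, chr17:14279506-14404790, plus strand), the paralog of Smoc1 and a matrix protein that promotes growth factor responses, did not follow it. Its levels were 277 and 50.4 CPM in WT against 286 and 223 CPM in AXL KO. WT replicate 2 lay far below the other 3 libraries, which were close together, so that the groups overlapped. The log2 difference was 0.64 ± 0.75 (SE), −0.12 without WT replicate 2 and 2.34 without WT replicate 1. Smoc1 and Smoc2 thus shared their lowest library, and they differed in WT replicate 1, which was near the AXL KO libraries for Smoc2 and 3.45-fold or more below them for Smoc1.

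Sparc (ENSMUSG00000018593, chr11:55394500-55423183, minus strand), the founding member of the family and a collagen chaperone, was at 193 and 262 CPM in WT against 122 and 263 CPM in AXL KO. The groups overlapped: AXL KO replicate 1 was the lowest library, while AXL KO replicate 2 was level with WT replicate 2. Its log2 difference was −0.24 ± 0.40 (SE), turned to 0.20 without AXL KO replicate 1 and was −0.91 without AXL KO replicate 2. The bulk libraries do not show which cells the Sparc RNA came from. They cannot tell fewer such cells in a tumour from less Sparc RNA in each.

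Sparcl1 (ENSMUSG00000029309, chr5:104079111-104113733, minus strand), also called hevin and prominent in vessel-associated cells, was the steadiest member. It was at 58.7 and 66.4 CPM in WT against 81.3 and 73.6 CPM in AXL KO, a 1.39-fold span over all libraries. The AXL KO values were again both above the WT values, the lower by 1.11-fold over the higher WT library. The log2 difference was 0.31 ± 0.18 (SE) and stayed between 0.22 and 0.40 when each library was left out. The 10 endothelial markers summed to 136 and 130 CPM in WT against 116 and 158 CPM in AXL KO, and the 9 pericyte and smooth muscle markers to 238 and 339 against 214 and 257 CPM. Neither sum separated the groups. Notch3 was the largest part of the second sum, at 149 and 186 CPM in WT against 133 and 132 CPM in AXL KO. The part of vessel-associated cells in the Sparcl1 level was not tested.

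Spock2 (ENSMUSG00000058297, chr10:60106219-60135198, plus strand), a heparan sulfate proteoglycan of the testican group, was close to the limit of detection, with 18, 7, 6 and 35 counts. That made 0.84, 0.37, 0.32 and 1.05 CPM, in which replicate 1 of WT and replicate 2 of AXL KO were the higher libraries of their groups. The groups overlapped, with a log2 difference of 0.24 ± 0.78 (SE).

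**Figure D1:**
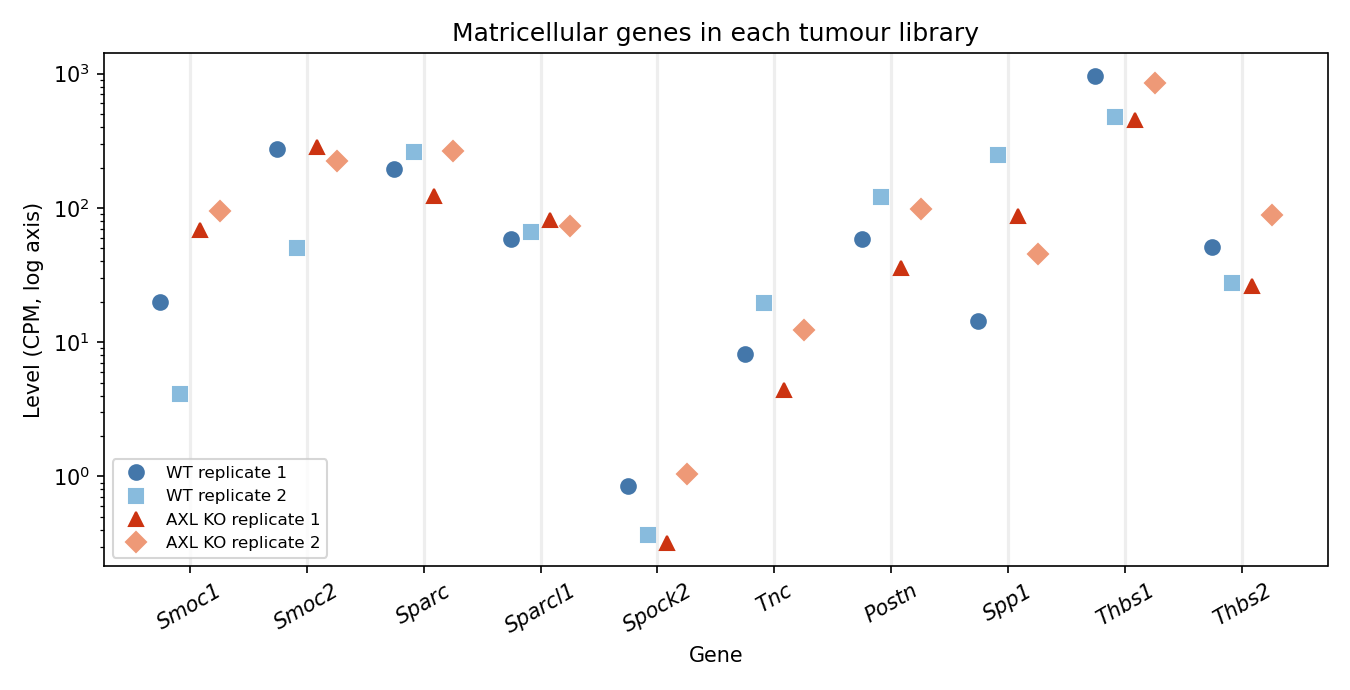
Level of each of the 10 genes in each of the 4 libraries, in CPM on a log axis; each point is 1 library. Smoc1 and Sparcl1 are the genes whose AXL KO points both lie above both WT points, and Spp1 and Smoc1 have the widest spans, 17.5-fold and 22.8-fold.

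Among the proteins outside the SPARC family, Postn (ENSMUSG00000027750, chr3:54361109-54391037, plus strand) encodes periostin, an integrin ligand that aids collagen cross-linking. It was at 58.5 and 121 CPM in WT against 35.8 and 98.9 CPM in AXL KO. Replicate 2 of each group was the high library and AXL KO replicate 1 the lowest of all. The log2 difference of −0.41 ± 0.57 (SE) was 0.21 without WT replicate 2 and −1.34 without AXL KO replicate 2.

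Tnc (ENSMUSG00000028364, chr4:63959785-64047015, minus strand), the gene of the anti-adhesive glycoprotein tenascin C, was lower in abundance with the same order of libraries. It was at 8.14 and 19.5 CPM in WT against 4.38 and 12.3 CPM in AXL KO, again overlapping. Its log2 difference was −0.71 ± 0.64 (SE), 0.06 without WT replicate 2 and −1.67 without AXL KO replicate 2.

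Sparc, Postn and Tnc had AXL KO replicate 1 as their lowest library in common with the collagens. Of the 14 collagen and fibronectin partner genes, 13 were lowest in AXL KO replicate 1 and 12 highest in WT replicate 2. Col1a1 was at 177, 223, 58.2 and 205 CPM, and Col3a1 at 257, 391, 87.6 and 375 CPM. The 12 fibroblast markers, which include these collagens, summed to 739, 1102, 370 and 1008 CPM. Most of that sum came from the 3 fibrillar collagens. Dcn, Lum, Dpt, Pdgfrb and Mfap5 were also lowest in AXL KO replicate 1, while Col6a3 was highest there, at 62.01 CPM. Whether the share of fibroblasts sets the levels of Sparc, Postn and Tnc was not tested.

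**Figure D2:**
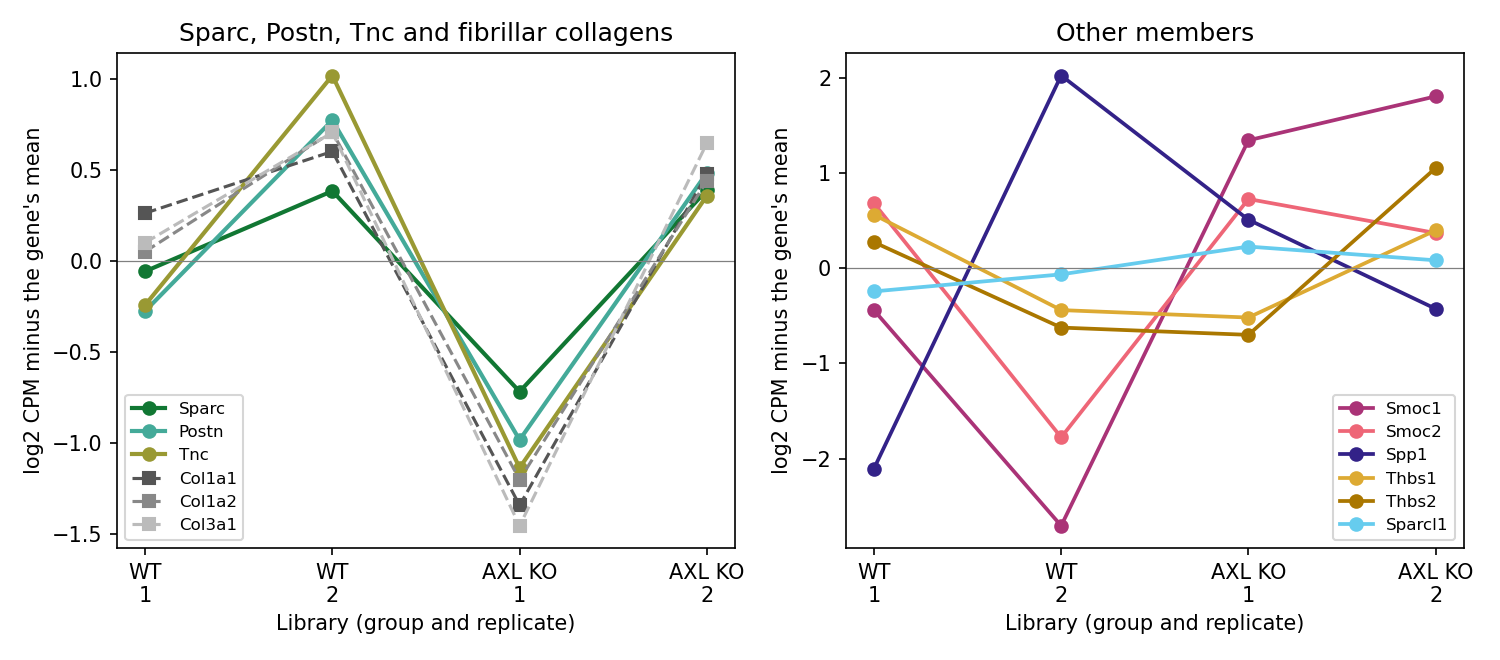
log2 CPM of each gene minus its own mean over the 4 libraries (x axis: library; lines join the values of 1 gene and carry no order). Left, Sparc, Postn and Tnc beside Col1a1, Col1a2 and Col3a1, with AXL KO replicate 1 lowest for each; right, the other members except Spock2, where Spp1 is highest and Smoc1 and Smoc2 lowest in WT replicate 2.

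The thrombospondins were low in WT replicate 2 as well as in AXL KO replicate 1, their lowest library. Thbs1 (ENSMUSG00000040152, chr2:118111876-118127133, plus strand) encodes thrombospondin 1, which activates latent TGF-beta and restrains vessel growth through CD36 and CD47. It was at 955 and 477 CPM in WT against 452 and 853 CPM in AXL KO, with a high and a low library in each group. The log2 difference of −0.13 ± 0.47 (SE) became 0.45 without WT replicate 1 and −0.68 without AXL KO replicate 2. Thbs2 (ENSMUSG00000023885, chr17:14665500-14694235, minus strand), a thrombospondin that also inhibits vessel growth, was at 51.4 and 27.6 CPM in WT against 26.2 and 88.2 CPM in AXL KO. Its low libraries were those of Thbs1, WT replicate 2 and AXL KO replicate 1. The log2 difference was 0.54 ± 0.62 (SE), and −0.61 within 1 prefix.

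Spp1 (ENSMUSG00000029304, chr5:104435118-104441050, plus strand), the gene of osteopontin, a phosphorylated ligand of integrins and CD44, had the highest level of any library in a WT tumour and the lowest in the other. It was at 14.3 and 250 CPM in WT, a 17.5-fold distance, against 87.3 and 45.6 CPM in AXL KO. Both AXL KO libraries thus lay between the WT libraries. The log2 difference of −0.99 ± 1.18 (SE) turned to 2.22 without WT replicate 2 and was −1.91 without WT replicate 1. With all 4 libraries kept it was 0.08 as the difference of mean log2 CPM, so that its sign also depended on how the libraries were averaged. In WT replicate 2, the Spp1 maximum, the 12 macrophage markers had their lowest sum, 636 CPM against 803 to 1033 CPM, with 10 of the 12 lowest there, and the hypoxia targets their highest. The part of either was not tested.

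**Figure D3:**
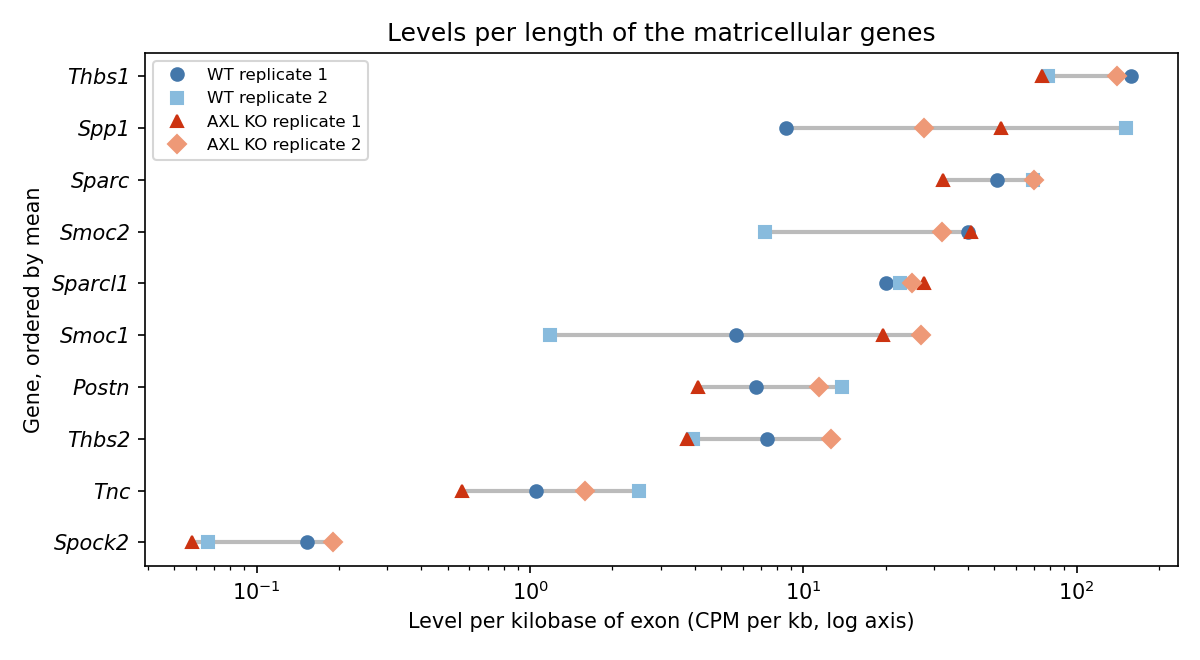
Level of each gene per kilobase of merged exon (CPM per kb, log axis) in the 4 libraries, with a grey line from the lowest to the highest and genes ordered by their mean. Thbs1 leads at a mean of 113, and Spock2 is last at 0.116.

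Per kilobase of exon, the scale on which genes can be compared, Thbs1 had the highest mean level of the 10, 113 CPM per kb (range 74.4 to 157). Spp1 followed at 60.2 (8.65 to 151), Sparc at 55.5 (32.3 to 69.5), Smoc2 at 30.1 (7.25 to 41.1), Sparcl1 at 23.8 (19.98 to 27.7) and Smoc1 at 13.4 (1.18 to 27.0). Postn was at 9.03 (4.12 to 13.9), Thbs2 at 6.90 (3.74 to 12.6), Tnc at 1.43 (0.564 to 2.51) and Spock2 at 0.116 (0.0579 to 0.190). Ranges of neighbours from Spp1 to Thbs2 overlapped, as did those of Thbs1 and Spp1, so most of this order is not beyond the spread. The highest Tnc value was below the lowest Thbs2 value, and Spock2 was below all other members in each library.

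Of the 10 members, 5 had a positive and 5 a negative log2 difference, with a median of 0.06 beside a median of −0.0019 over all genes tested. The AXL KO values both exceeded the WT values for 2 members, as they did for 14.7% of all genes tested, and were both lower for 0 members, against 14.5%. Only Smoc1 and Sparcl1 kept their sign without each library in turn, which follows from their AXL KO values both exceeding the WT values. The other 8 took the other sign without at least 1 library. Libraries of the same genotype often differed: the WT libraries were over 2-fold apart for 7 of the 10 members (16.9% of all genes tested) and the AXL KO libraries for 5 (7.91%). AXL KO replicate 1 was the lowest library for 6 members, AXL KO replicate 2 the highest for 4.

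**Figure D4:**
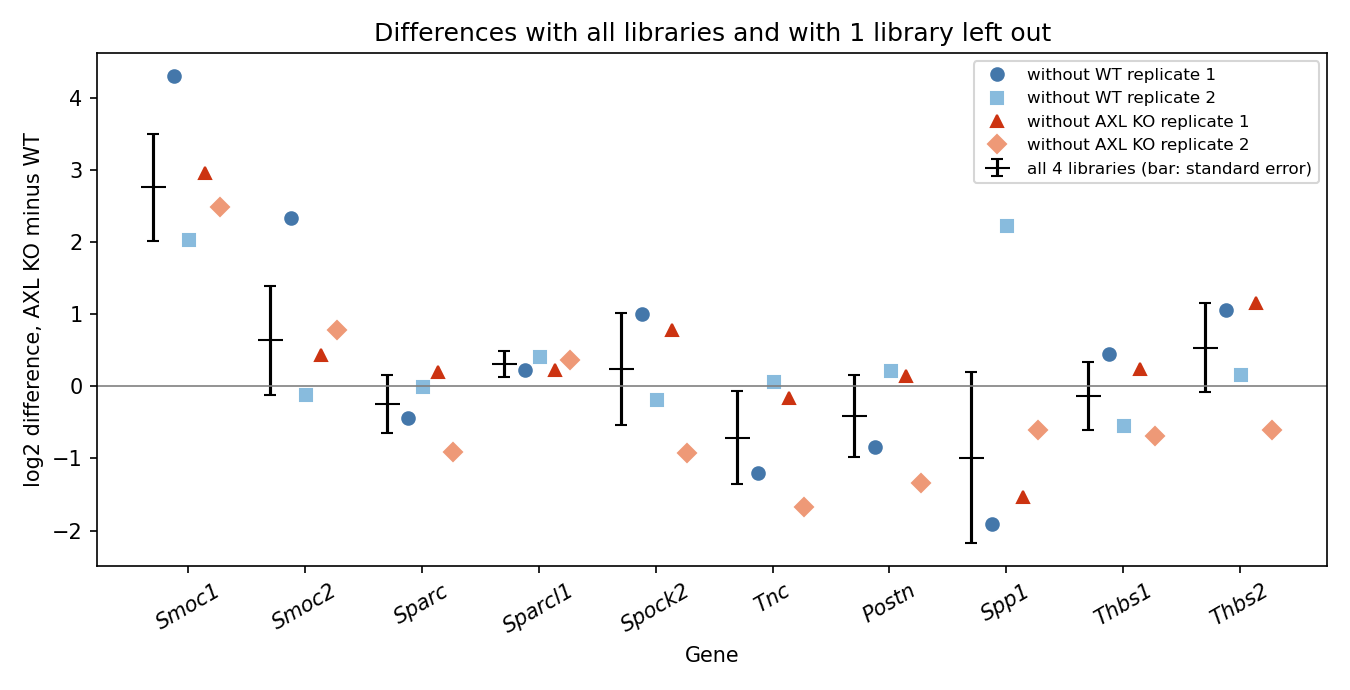
log2 difference of each gene, AXL KO minus WT, with all 4 libraries (black, bar of 1 standard error) and with each library left out in turn (coloured points). Smoc1 stays between 2.03 and 4.30 and Sparcl1 between 0.22 and 0.40, while each of the other genes has points on both sides of 0. The kept sign of Smoc1 and Sparcl1 follows from their AXL KO values both exceeding the WT values.

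The related genes outside the 10 gave no calls. The 7 lists, chosen by family or function with earlier results of these data known, held 84 genes, of which 69 were tested. By edgeR's quasi-likelihood test 0 of the 69 passed an adjusted p of 0.05 over all genes in either direction, as did 0 of all 14330 genes tested. An unadjusted edgeR p under 0.05 was reached by 1 of the 69, beside 314 of the 14330. DESeq2 called 0 of the listed genes, beside 0.0889% of all genes to which it gave an adjusted p. Of the 69, 26 had a positive and 43 a negative log2 difference, with a median of −0.25.

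Several kin of the members had no counts. Of the SPARC relatives, Fstl1, a secreted glycoprotein gene, was at 39.7, 75.2, 25.0 and 74.9 CPM, the order of libraries seen for Postn and Tnc. The follistatin gene Fst stayed under 1 CPM, and Spock1 and Spock3 did not pass the filter. Of 11 kin of the other families 5 were tested, with 4 positive differences and a median of 0.19. Without AXL KO replicate 2 each of the 5 had a negative difference (Thbs3 −0.31, Thbs4 −0.88, Comp −2.04, Tnxb −0.86 and Tgfbi −0.33), with a median of −0.86. Tnr, Ibsp, Mepe and Dspp had no count in any library. Comp, which encodes a cartilage matrix protein of the thrombospondin family, was at 26.2 and 365 CPM in WT against 48.1 and 78.3 CPM in AXL KO, so that WT replicate 2 was far above the rest, as it was for Spp1. Thbs4, Tnxb and Ccn3 each had their highest level in AXL KO replicate 2, at 25.9, 24.7 and 7.20 CPM.

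Among the CCN proteins, matricellular regulators of integrin signalling, 5 of 6 were tested, 3 with a positive and 2 with a negative difference. The median of 0.07 became 0.62 without WT replicate 2 and 0.19 without AXL KO replicate 1. It was −0.60 without WT replicate 1 and −0.64 without AXL KO replicate 2, where Ccn4 alone stayed positive, at 0.13. Ccn1 was at 32.8 and 39.9 CPM in WT against 14.7 and 24.5 CPM in AXL KO, without overlap. Its log2 difference was −0.89 ± 0.31 (SE), with an unadjusted p of 0.0346 and an adjusted p of 0.9997 by edgeR's quasi-likelihood test, so it did not pass. Without single libraries it ran from −1.32 to −0.57. Ccn2 was at 18.1, 46.3, 12.8 and 36.7 CPM, in the order of Postn.

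The 21 receptor genes were all tested, 13 with a positive and 8 with a negative difference (median 0.11, and −0.31 without AXL KO replicate 2). The AXL KO values both exceeded the WT values for 6, Cd47, Itgb3, Itgb6, Itgb8, Ptprz1 and Egfr, against 14.7% of all genes tested, and were both lower for 2, Sdc4 and Scarb1, against 14.5%. The integrin gene Itgb3 was at 91.8 and 85.0 CPM in WT against 181 and 98.3 CPM in AXL KO, with a log2 difference of 0.66 ± 0.32 (SE) and an edgeR adjusted p of 0.9997. It was 0.15 without AXL KO replicate 1, the high library, and 1.02 without AXL KO replicate 2. The integrin gene Itgb8 was at 63.9, 69.0, 85.9 and 85.1 CPM, and Egfr, whose product weakly binds repeats of tenascin C, at 101, 83.3, 132 and 111 CPM.

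The collagen and fibronectin list had 13 negative differences among 14. The AXL KO values were both lower than those of WT for 0 of the 14, against 14.5% of all genes tested. They were both higher for 0, against 14.7%. The median of −0.45 was −0.0010 without WT replicate 2, 0.05 without AXL KO replicate 1 and −1.35 without AXL KO replicate 2. Bmp1, the protease that trims procollagens and is helped by periostin, was at 7.53, 28.3, 4.17 and 10.2 CPM, the collagen chaperone gene Serpinh1 at 193, 379, 189 and 209 CPM, and Col4a2, a basement membrane collagen gene, at 133, 199, 92.7 and 161 CPM. WT replicate 2 was the highest library for all 3 of these. Of 11 proteases that cleave matricellular proteins 7 were tested, 6 with a negative difference (median −0.40, between −0.94 without AXL KO replicate 2 and −0.05 without AXL KO replicate 1). Adamts4, whose product cuts SPARCL1, was at 2.43, 6.28, 1.12 and 2.58 CPM, Adamts1 at 7.39, 8.74, 4.01 and 5.97 CPM, and the stromelysin gene Mmp3 at 4.86, 7.75, 2.35 and 6.12 CPM. These 3 protease genes were again highest in WT replicate 2 and lowest in AXL KO replicate 1. Of 17 BMP and TGF-beta genes 15 were tested, 11 with a negative difference (median −0.31, between −0.44 without AXL KO replicate 2 and −0.08 without WT replicate 2), and the AXL KO values were both lower than those of WT for 4, against 14.5% of all genes tested: Bmp7, Tgfbr2, Id1 and Smad6. Smad6, an inhibitor of BMP signalling that BMP itself induces, was at 5.14 and 9.01 CPM in WT against 4.11 and 3.75 CPM in AXL KO (log2 difference −0.85 ± 0.40 SE, and −0.39 without WT replicate 2, adjusted p = 0.9997 by edgeR's quasi-likelihood test). Ltbp1, which holds latent TGF-beta in the matrix, was at 8.09, 15.97, 2.88 and 8.76 CPM.

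The genes whose profiles lay nearest to those of the 4 members with a span over 2 on the log2 scale were taken from 13025 tested genes, by Euclidean distance between centred log2 CPM over the 4 libraries. Few genes ran like Smoc1: 14 lay within a distance of 1, or 0.107%. The nearest was the potassium channel gene Kcnma1 at 0.07, at 0.61, 0.05, 2.19 and 3.15 CPM, followed by Prdm16, Kcng2, Tmsb15b2 and Chrm4 at 0.45, 0.50, 0.51 and 0.57. All 5 were at low levels, at most 5.52 CPM in any library. In WT replicate 2 they were at most at 0.26 CPM, where the prior count of 2 shapes the log2 value and thus the distance. For Spp1 6 genes lay within 1, or 0.0461%, and the nearest were Hepacam2, Lao1, Gad1, Adrb3 and Rflna, of which Lao1 was at 1.68, 23.7, 6.94 and 4.41 CPM. Smoc2 had 354 genes within 1, led by Pls1, Tuba8, Ccser1, Cd1d1 and Adig. Tnc had 891, with Itga2, Alkal2, Srpx and Fkbp5 among the nearest. Over 4 libraries many profiles are alike, and fewer lie near a member with a wide span, so these are descriptions of likeness only.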

How the data were processed

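RNA-seq read counts of 4 tumours were used. The deposited files hold raw counts per Ensembl gene. Per the submitters' processing notes, CASAVA 1.8, TopHat2 2.0.10, HTSeq 0.5.3, DESeq2 1.4.5 and GRCm38 were used, with no roles given. No source used here states the annotation release, the strand setting or how reads were filtered. Whether reads of genes on opposite strands were told apart is therefore not known. Each annotated overlap of a member that has a row held at most 3 counts in all. The opposite-strand genes 4930474M22Rik at Smoc2 and Gm29233 at Thbs1 have no row, so that bound leaves them out. The 5 summary lines that name no gene stayed out of all totals. They included reads outside genes (5.27% to 8.11%), ambiguous reads (0.635% to 1.85%) and multiple alignments (23.2% to 28.1%).

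Symbols and merged exon lengths came from GENCODE M21 (GRCm38), which named 36429 of 38293 identifiers. Genes were kept with filterByExpr, scaled with TMM and compared with edgeR 4.0.16 (glmQLFit with legacy=FALSE, no covariates, Benjamini-Hochberg adjustment) in R 4.3.3. The alternatives were DESeq2 1.42.0, limma-voom (limma 3.58.1), other scalings, filters and prior counts, a replicate block and each library left out. Log2 CPM used a prior count of 2. Each SE is the size of the log2 difference divided by the square root of edgeR's quasi-likelihood F. It borrows dispersion from all genes and is not the spread of the 2 libraries of a group alone. The edgeR script was tested on simulated data. No 2 libraries agreed within sampling noise (chi-square per degree of freedom 32.7 to 165).

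The members and lists were chosen with earlier results of these data known. Named were all members, Axl and Erbb2, up to 3 genes of each list by smallest p, and the 5 nearest profiles of members spanning over 2 on the log2 scale. Genes whose groups did not overlap, Col1a1, Col3a1, the single fibroblast markers and those at 0 were named after their values were seen. Some genes that this rule names are not reported here.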

Additional observations from a re-analysis of the deposited data

How the results depend on the processing

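The count of genes called was 0 with edgeR and stayed 0 with scaling by DESeq2 size factors or by library totals, without the filter, with a minimum of 1 CPM in 2 libraries, with limma-voom (285 at an unadjusted p under 0.05) and with the replicate block. DESeq2 called 17. With 1 library left out the edgeR count ran from 0 to 216, the latter without WT replicate 1. The count of related genes called was 0 under each of these. Where a group was left with 1 library, it was assumed to vary like the other. The largest shift of a member under another scaling was 0.031 on the log2 scale. With the replicate block the log2 difference was 3.12 for Smoc1 and 0.07 for Spp1, whose sign differed there from the value without it. Same-numbered libraries did not deviate together (correlation over genes −0.04). As it compares a single difference in each group, that correlation cannot tell whether the replicate numbers mark a pairing. With 2 libraries a group, leaving out 1 moved 7 member values beyond the spread between replicates: without AXL KO replicate 2 for Sparc, Spock2, Postn and Thbs2, without WT replicate 1 for Smoc1 and Smoc2, and without WT replicate 2 for Spp1.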

Other observations

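Members lie beside each other at 2 places of the genome. On chromosome 17 Smoc2 and Thbs2 are 261 kb apart with 0 annotated protein-coding genes between them. Their levels did not run together: the highest library was AXL KO replicate 1 for Smoc2, at 286 CPM, and AXL KO replicate 2 for Thbs2, at 88.2 CPM, where AXL KO replicate 1 had its lowest, 26.2 CPM. On chromosome 5 Sparcl1 and Spp1 are 321 kb apart, with 4 protein-coding genes between them: Dspp, Dmp1, Ibsp and Mepe, genes of mineralised tissue proteins related to osteopontin. Dspp, Ibsp and Mepe had no count in any library and Dmp1 did not pass the filter, so of this cluster the flanking Sparcl1 and Spp1 were the genes tested. Sparcl1 spanned 1.39-fold over the libraries and Spp1 17.5-fold.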
